A study of Mus musculus with 16 samples.

Results

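The genes described here encode 9 surface proteins of inhibitory pathways: Ctla4, Pdcd1, Havcr2, Tigit, Lag3, Cd160, Btla, Cd96 and Cd200. They were chosen by name, and each was read through the brightest probe set annotated to that symbol alone. All 9 were found, each with 1 such probe set, among 19938 genes read from 35556 probe sets. The probe sets were 10346790 (Ctla4), 10356866 (Pdcd1), 10375443 (Havcr2), 10439527 (Tigit), 10547906 (Lag3), 10500406 (Cd160), 10435982 (Btla), 10439744 (Cd96) and 10439651 (Cd200). RNA came from regulatory T cells (Treg), the Foxp3-expressing CD4 T cells that hold back other T cells, taken from pooled lymph nodes of wild type female C57BL/6 mice aged 8 to 12 weeks.

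The Treg were sorted by surface CD103, an integrin chain encoded by Itgae that holds T cells at epithelium, and by ICOS, a costimulatory receptor. This gave 4 subsets, called double-negative (CD103neg ICOSneg), CD103 single-positive (CD103pos ICOSneg), ICOS single-positive (CD103neg ICOSpos) and double-positive (CD103pos ICOSpos). RNA was taken directly after the sort (fresh) or, for activated cells, on day 3 of an assay of how well Treg hold back naive CD4 T cells. Each such culture held 200000 Treg, 1000000 naive CD4 T cells bearing Ly5.1, soluble anti-CD3 at 0.5 ug/ml and 2000000 irradiated splenocytes from Rag2-/- mice. Treg were recovered from it by a second sort for CD4 and CD25 without Ly5.1. No group carried a mutation or transgene. The 8 groups had 2 arrays each, 16 in all, labelled as biological replicates from 2 independent experiments, and every array was made from 270 ng of total RNA. The labels do not say whether an activated culture came from the cells of the fresh array with its number.

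Coinhibitory receptors bind ligands on neighbouring cells and, in conventional T cells, dampen signalling through the T cell receptor and CD28. On Treg several of them serve the suppressive work itself, Ctla4 above all. They fall into groups by ligand. Ctla4 binds CD80 and CD86, Pdcd1 (PD-1) binds PD-L1 and PD-L2, and Btla and Cd160 bind HVEM, the product of Tnfrsf14. Tigit and Cd96 bind CD155 in competition with the activating receptor Cd226. Havcr2 (TIM-3) has galectin-9 and Ceacam1 among its ligands, and Lag3 binds MHC class II. Cd200 is itself the ligand of an inhibitory receptor, Cd200r1, on other cells.

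The genes lie on 5 chromosomes, with 4 of the 9 (Tigit, Btla, Cd200 and Cd96) on chromosome 16. RefSeq start sites on GRCm38.p6 placed Tigit and Cd96 2456 kb apart, with Btla and Cd200 between them and 185 kb from each other. Promoter windows of 250 bases before the start site were held in RefSeq's table for 8 of the 9, and not for Lag3. The windows of the 2 genes highest with ICOS in fresh cells and of the gene that fell most on activation are printed, since those genes lead the subset and activation results. Capitals mark letters matching the motifs named after them, on either strand, and each sequence runs 5′ to 3′ towards its gene.
Havcr2, chr11:46454681-46454930, plus strand, GRCm38.p6: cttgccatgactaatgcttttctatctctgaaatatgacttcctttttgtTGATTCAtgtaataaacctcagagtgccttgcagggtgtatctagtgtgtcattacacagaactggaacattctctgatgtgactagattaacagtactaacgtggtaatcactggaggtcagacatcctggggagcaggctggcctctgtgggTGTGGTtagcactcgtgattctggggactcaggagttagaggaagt
Tigit, chr16:43664185-43664434, minus strand, GRCm38.p6: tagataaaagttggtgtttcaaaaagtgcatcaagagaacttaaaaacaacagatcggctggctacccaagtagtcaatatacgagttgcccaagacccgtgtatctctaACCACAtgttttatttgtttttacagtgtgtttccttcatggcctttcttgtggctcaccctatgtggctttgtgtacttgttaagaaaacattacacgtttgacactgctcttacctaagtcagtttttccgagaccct
Cd96, chr16:46120249-46120498, minus strand, GRCm38.p6: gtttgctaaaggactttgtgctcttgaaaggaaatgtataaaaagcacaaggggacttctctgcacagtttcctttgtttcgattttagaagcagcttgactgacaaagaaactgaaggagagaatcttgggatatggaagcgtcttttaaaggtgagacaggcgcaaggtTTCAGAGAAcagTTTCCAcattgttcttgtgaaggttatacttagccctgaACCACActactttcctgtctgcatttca

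The search covered 8 motifs on both strands: AP-1 (TGANTCA), the NFAT core (TGGAAA), the Runx core (TGTGGT), STAT (TTCNNNGAA), a forkhead core (TGTTTAC), a T-box core (AGGTGT), an E-box (CAGCTG) and a cyclic AMP response core (TGACGT). The Runx core was found in all 3 printed windows, at bases -46 to -41 of Havcr2, -140 to -135 of Tigit and -28 to -23 of Cd96. It was also present for Btla and in both windows of Cd160, so that 5 of the 8 genes with a window held it. Counted by window, 14% of 32851 RefSeq mouse windows of this length held it, and the 8 genes had 9 windows in all. Havcr2 held the AP-1 letters at -200 to -194, which 6.75% of windows hold. Cd96 held the NFAT letters at -67 to -62 (18.6% of windows) and the STAT letters at -79 to -71 (7.02% of windows). These are matches of letters, and no binding was measured.

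Values are log2 intensities as deposited, on which a difference of 1 is a 2-fold difference, and they were compared between arrays for 1 gene at a time, never between genes. Differences were tested with limma on all 16 arrays, with Benjamini-Hochberg adjustment over all 19938 genes of a comparison and a threshold of 0.05, and ± gives the standard error (SE) of a difference, each group having n = 2. The p-values measure the spread between 2 arrays a group, pooled over the 8 groups. In sorted bulk RNA, fewer cells that express a gene and less RNA in each of them cannot be told apart.

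The sort markers followed the labels in fresh cells, Itgae reading 11.77 to 12.37 in CD103pos and 7.25 to 9.19 in CD103neg subsets and Icos 12.61 to 13.31 in ICOSpos and 10.40 to 11.47 in ICOSneg subsets. After the assay Itgae read 11.08 and 11.18 in double-positive, 9.87 and 9.94 in CD103 single-positive and 7.31 and 7.95 in double-negative cells. On the first activated ICOS single-positive array, labelled CD103neg, it read 10.001, above both CD103 single-positive arrays, so that Itgae did not follow the CD103 label there. Activated Icos read 11.63 and 11.86 in double-negative and 12.12 and 12.07 in CD103 single-positive cells, above every fresh ICOSneg array. It read 12.91 and 12.87 in double-positive cells. The second sort did not use CD103 or ICOS, so the names of activated subsets are those of the first sort. The second array of activated ICOS single-positive cells stood apart and is shown apart throughout. Foxp3, the defining Treg gene, read 8.53 there against 12.64 on its partner array and 11.69 to 12.84 on the other 14. Itgae read 6.30 against 10.001 on the partner and Icos 11.25 against 12.88. The mean level of 10 Treg genes was 9.92 there and 10.99 to 11.86 on the other 15 arrays. The mean level of 13 CD8 T and NK cell genes was 7.52 there and 6.09 to 6.98 elsewhere, with Klrk1 at 8.36 against at most 6.67, while Cd8a (6.11), Klrb1c (4.22) and Ncr1 (4.74) lay within the range of the other arrays. In all, 685 genes differed more than 2-fold from the partner array, against 24 to 413 between the arrays of the other groups. Activated double-negative replicate 2 came nearest to the array standing apart in several markers. It held the Foxp3 level of 11.69, the Treg mean of 10.99, the CD8 T and NK mean of 6.98 and the Klrk1 level of 6.67. The 413 genes were those between the activated double-negative arrays. The part of these marker levels in the results was not tested. Results are given with all arrays and, for the main changes of a call, a count or a value, also without the array standing apart. That leaves 1 activated ICOS single-positive array, which is taken to vary like the other groups. In comparisons without that group the difference then stays the same and the pooled spread changes, just as when the partner array is left out.

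Among the coinhibitory genes the same array differed from its partner by -3.19 (Havcr2), -2.06 (Tigit), -1.27 (Ctla4) and -0.94 (Pdcd1) on the log2 scale. It was higher by 2.59 for Cd160, 1.001 for Btla and 0.86 for Cd96. For these 7 genes no other group had a wider gap between its arrays. Lag3 and Cd200 were the exceptions, at 0.27 and -0.31, inside the widest gaps of other groups (0.85 for Lag3 in activated double-negative cells and -0.69 for Cd200 in activated double-positive cells).

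**Figure D1:**
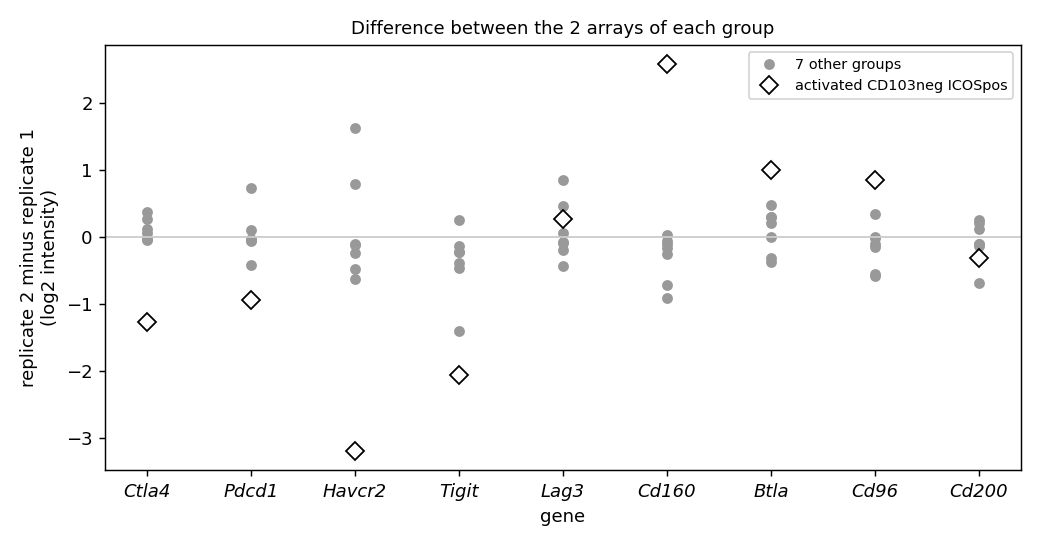
Difference between replicate 2 and replicate 1 of each group (log2 intensity, vertical axis) for the 9 genes; grey dots are the 7 other groups and the open diamond is activated ICOS single-positive cells. The diamonds lie outside the grey dots for 7 genes, lowest for Havcr2 and highest for Cd160, and among them for Lag3 and Cd200.

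ICOS-expressing Treg carried more RNA of 4 coinhibitory genes directly after the sort. Averaged over both CD103 states, Havcr2, Tigit, Lag3 and Pdcd1 were higher with ICOS, and none of the 9 was lower past the threshold. Of all genes tested 6.53% passed in this comparison, 4.1% higher and 2.43% lower. Without the array standing apart 6 of the 9 passed, against 7.81% of all genes, with Ctla4 higher and Cd96 lower added. In the same fresh cells the mean level of 9 genes of activated conventional CD4 cells was 7.75 and 7.79 on the ICOS single-positive arrays and 6.35 to 6.59 on the other 6, and the part of this in the result was not tested. The levels of every array follow gene by gene, from the TIM and CD155 receptors to those of the CD28 family and the HVEM receptors.

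**Figure D2:**
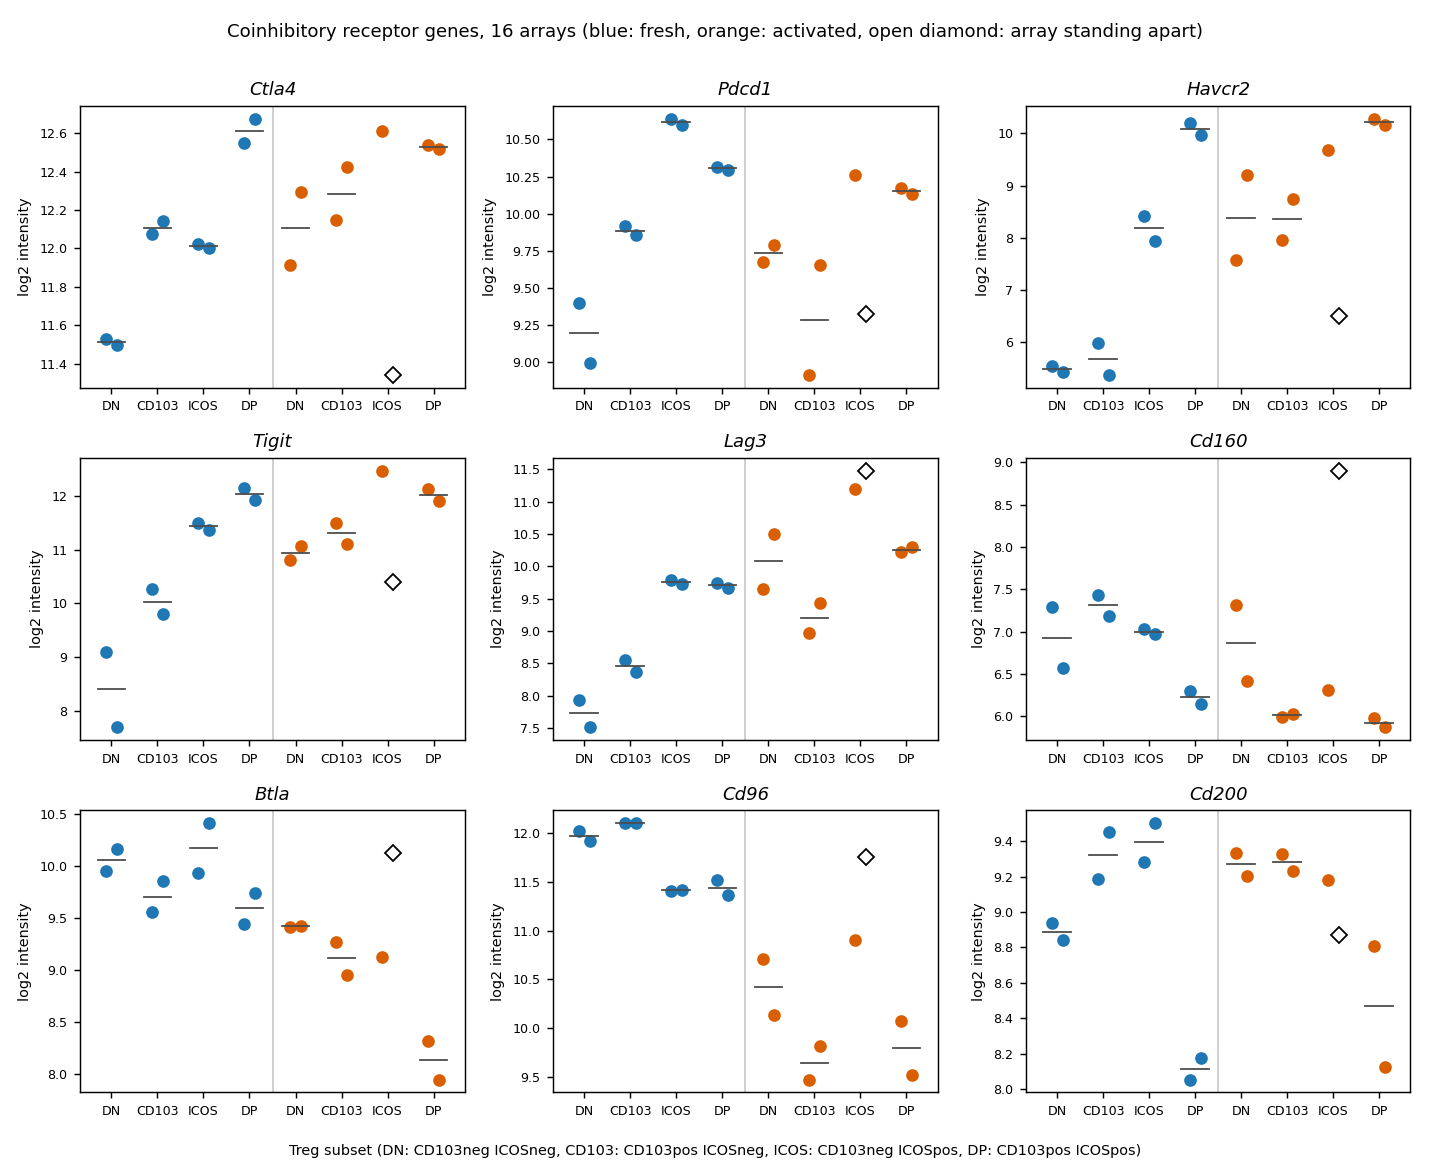
Log2 intensity (vertical axis) of the 9 genes on the 16 arrays, by subset, fresh and activated; each point is 1 array, horizontal lines are means of 2 arrays, and the open diamond is the activated ICOS single-positive array that stood apart. Fresh Havcr2, Tigit, Lag3 and Pdcd1 are higher in both ICOS-positive subsets, and activated Btla and Cd96 lie under their fresh levels on every array but the one shown apart.

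Havcr2 encodes TIM-3, a receptor of terminally differentiated effector T cells and of effector Treg. In fresh cells it read 5.53 and 5.43 on the double-negative arrays (replicates 1 and 2), 5.98 and 5.37 on CD103 single-positive, 8.41 and 7.95 on ICOS single-positive and 10.21 and 9.97 on double-positive arrays. The double-positive arrays were highest, the ICOS single-positive arrays next, and both ICOS-negative subsets overlapped at the bottom. The difference with ICOS was 3.56 ± 0.57, or 11.8-fold (adjusted p = 0.0035), and it passed with each of the 16 arrays left out in turn. The fresh ICOS-negative values lay under the array medians of 6.26 to 6.48, where intensities include background, so the size of the fold is uncertain. Double-positive cells exceeded double-negative cells by 4.61 ± 0.81 (adjusted p = 0.00846), a call lost without fresh double-positive replicate 1 (0.063) or 2 (0.0599) or fresh double-negative replicate 2 (0.0747). For the part of CD103 the difference was 1.05 ± 0.57 and did not pass (adjusted p = 0.797, 95% interval -0.20 to 2.31).

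Activated Havcr2 read 7.57 and 9.20 in double-negative, 7.95 and 8.75 in CD103 single-positive and 10.29 and 10.17 in double-positive cells. On the activated ICOS single-positive arrays it read 9.68, and 6.49 on the array standing apart. Every activated double-negative and CD103 single-positive array lay above every fresh array of the same subset, whereas the double-positive arrays overlapped before and after the assay. The gene rose by 2.91 ± 0.81 in double-negative cells (adjusted p = 0.031) and by 2.67 ± 0.81 in CD103 single-positive cells (adjusted p = 0.0382). Both rises started from fresh levels under the array medians. The first was lost without fresh double-negative replicate 1 (0.113) or 2 (0.123) or activated double-negative replicate 2 (0.226). The second held only when an activated double-negative or activated ICOS single-positive array was left out, with adjusted p of 0.0511 to 0.193 without each of the other 12 arrays. In double-positive cells the difference was 0.13 ± 0.81 (adjusted p = 0.944).

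Between Treg first sorted as ICOS-positive and as ICOS-negative, Havcr2 differed by 0.79 ± 0.57 after the assay and by 3.56 before it. The change of this difference, -2.77 ± 0.81, did not pass with all arrays (adjusted p = 0.0695) and passed without the array standing apart (-1.97 ± 0.47, adjusted p = 0.0374). Without that array activated Havcr2 was also higher with ICOS, by 1.58 ± 0.35 (adjusted p = 0.027, against 0.535 with it). Over 15 arrays its level ran most closely with Cobll1 (r = 0.98), Adam8 (r = 0.96) and Prdm1 (r = 0.96), Prdm1 encoding the transcription factor Blimp-1 of effector Treg.

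Tigit, a CD155 receptor found on activated and effector Treg, read 9.10 and 7.70 in fresh double-negative, 10.26 and 9.80 in CD103 single-positive, 11.50 and 11.37 in ICOS single-positive and 12.14 and 11.92 in double-positive cells. The 4 subsets formed a ladder in that order with no overlap between neighbours. With ICOS it was higher by 2.52 ± 0.40, or 5.72-fold (adjusted p = 0.00312), and double-positive cells exceeded double-negative cells by 3.63 ± 0.56 (adjusted p = 0.0044). Both calls held under every omission of an array. The difference with CD103, 1.11 ± 0.40, did not pass (adjusted p = 0.449, 95% interval 0.24 to 1.98).

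After the assay Tigit read 10.81 and 11.07 in double-negative, 11.49 and 11.11 in CD103 single-positive and 12.13 and 11.91 in double-positive cells, with 12.46 and, on the array standing apart, 10.40 in ICOS single-positive cells. The double-negative arrays moved furthest, and the double-positive arrays hardly differed from their fresh values. In double-negative cells Tigit rose by 2.54 ± 0.56 (adjusted p = 0.00974), a call lost without fresh double-negative replicate 2 (0.089) or activated double-negative replicate 2 (0.0609). In CD103 single-positive cells the difference was 1.27, with an adjusted p of 0.157 on all arrays and 0.0289 without the array standing apart. The difference with ICOS in activated cells was 0.61 ± 0.40 (adjusted p = 0.476) on all arrays and 1.12 ± 0.28 (adjusted p = 0.0437) without it. Genes nearest to Tigit in level over 15 arrays were Ccr4 (r = 0.97), Stx11 (r = 0.96) and Tmbim1 (r = 0.95), Ccr4 being a chemokine receptor of skin-homing and effector Treg.

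Cd96, the other CD155 receptor of the set, ran the opposite way. Fresh cells read 12.02 and 11.92 in double-negative, 12.10 and 12.10 in CD103 single-positive, 11.41 and 11.42 in ICOS single-positive and 11.52 and 11.37 in double-positive cells. All 4 ICOS-positive arrays lay below all 4 ICOS-negative arrays, by 0.61 ± 0.19 on average, which did not pass on all arrays (adjusted p = 0.102). With either activated ICOS single-positive array left out, this fresh difference kept its size and passed.

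Activated Cd96 read 10.71 and 10.13 in double-negative, 9.47 and 9.82 in CD103 single-positive and 10.07 and 9.52 in double-positive cells. ICOS single-positive cells read 10.90, and 11.76 on the array standing apart. Leaving that array aside, all 7 activated arrays lay below all 8 fresh arrays. Cd96 fell by 1.55 ± 0.27 in double-negative (adjusted p = 0.00272), by 2.46 ± 0.27 in CD103 single-positive (adjusted p = 0.000106) and by 1.64 ± 0.27 in double-positive cells (adjusted p = 0.00286). These 3 calls held under every omission. In ICOS single-positive cells the difference was -0.09 ± 0.27 with both arrays and -0.52 ± 0.26 without the one standing apart, and neither passed (adjusted p = 0.949 and 0.501).

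The difference of Cd96 with ICOS turned from -0.61 in fresh to 0.53 in activated cells, neither of which passed on all arrays. The activated difference was 0.32 without the array standing apart. The change between them, 1.14 ± 0.27, passed (adjusted p = 0.032), was positive in both replicates, and was 0.92 ± 0.22 (adjusted p = 0.0394) without the array standing apart. Leaving out any of 11 arrays took the adjusted p to 0.0536 to 0.0774. The call held without activated double-negative replicate 1, CD103 single-positive replicate 2, double-positive replicate 2, or 1 of the ICOS single-positive arrays. Activated CD103-positive cells carried less Cd96 than CD103-negative cells, by 1.15 ± 0.19 (adjusted p = 0.0278), and the 4 CD103-positive arrays lay below the other 3. Without the array standing apart this was -0.94 ± 0.17 and no longer passed (adjusted p = 0.0548), and leaving out any of 10 arrays, it among them, gave 0.05 to 0.115. The level of Cd96 was tracked most closely by Utrn (r = 0.99), Elk4 (r = 0.98) and Adamts6 (r = 0.98).

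Lag3, which binds MHC class II, read 7.94 and 7.51 in fresh double-negative, 8.54 and 8.36 in CD103 single-positive, 9.79 and 9.72 in ICOS single-positive and 9.75 and 9.66 in double-positive cells. The ICOS-positive subsets overlapped each other and lay well above both ICOS-negative subsets, of which double-negative cells were lowest. The difference with ICOS was 1.64 ± 0.18, or 3.12-fold (adjusted p = 0.000246), and double-positive exceeded double-negative cells by 1.98 ± 0.25 (adjusted p = 0.00134). Both held with every array left out in turn.

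Activated Lag3 read 9.65 and 10.51 in double-negative, 8.97 and 9.44 in CD103 single-positive and 10.22 and 10.29 in double-positive cells. Its highest values were in ICOS single-positive cells, at 11.20 and, on the array standing apart, 11.48, so that here both arrays sat together. With ICOS it was higher by 1.16 ± 0.18 in activated cells (adjusted p = 0.00609), a call that held with every array left out in turn. In double-negative cells Lag3 rose by 2.36 ± 0.25 after the assay (adjusted p = 9.34e-05), again under every omission. It differed by 0.75 ± 0.25 in CD103 single-positive cells (adjusted p = 0.0576) and by 0.55 ± 0.25 in double-positive cells (adjusted p = 0.184), and neither passed. In every subset Lag3 read higher on both activated arrays than on both fresh arrays. In ICOS single-positive cells it rose by 1.58 ± 0.25 (adjusted p = 0.00929), which was lost without either fresh array of that subset (0.0806 and 0.0836) or the array standing apart (0.0504).

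CD103-positive cells had less Lag3 than CD103-negative cells after the assay, by 0.98 ± 0.18 (adjusted p = 0.0385), where the fresh difference was 0.34 ± 0.18. That activated difference did not pass without the array standing apart (-0.91 ± 0.20, adjusted p = 0.119); it held in 4 of 16 omissions, those of either activated double-negative array, activated CD103 single-positive replicate 2 or activated ICOS single-positive replicate 1, and the others gave 0.0522 to 0.148. The change of the CD103 difference with the assay was -1.32 ± 0.25 and missed the threshold (adjusted p = 0.0612). Nearest to Lag3 in level over 15 arrays were Emp1 (r = 0.95), Cobll1 (r = 0.93) and Alcam (r = 0.93), and Cobll1 was also the nearest gene to Havcr2.

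Among the CD28-family receptors, Ctla4 separated all 4 fresh subsets. It read 11.53 and 11.50 in double-negative, 12.07 and 12.14 in CD103 single-positive, 12.02 and 12.00 in ICOS single-positive and 12.55 and 12.68 in double-positive cells. Either marker came with a higher level, and both together with the highest. On all arrays the differences with ICOS (0.50 ± 0.21, adjusted p = 0.232) and with CD103 (0.60 ± 0.21, adjusted p = 0.446) did not pass. Without the array standing apart, whose gap of -1.27 enters the pooled spread, both fresh differences kept their size with an SE of 0.10 and passed (adjusted p = 0.00848 and 0.0209). The interaction of the markers was 0.00 ± 0.43, with a 95% interval of -0.94 to 0.94. Double-positive cells exceeded double-negative cells by 1.10 ± 0.30 (adjusted p = 0.077 on all arrays and 0.000809 without that array).

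Activated Ctla4 read 11.91 and 12.29 in double-negative, 12.15 and 12.42 in CD103 single-positive and 12.54 and 12.52 in double-positive cells, with 12.61 and, on the array standing apart, 11.34 in ICOS single-positive cells. Both double-negative arrays lay above their fresh counterparts, and both double-positive arrays lay below theirs. The difference in double-negative cells was 0.59 ± 0.30 (adjusted p = 0.237, and 0.0126 without the array standing apart). Genes nearest in level were Lamc1 (r = 0.96), Snx9 (r = 0.93) and Ptprj (r = 0.91).

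Pdcd1 encodes PD-1. Fresh cells read 9.40 and 8.99 in double-negative, 9.91 and 9.86 in CD103 single-positive, 10.64 and 10.60 in ICOS single-positive and 10.32 and 10.29 in double-positive cells. Unlike Havcr2, Tigit and Ctla4 it was highest in ICOS single-positive cells, above the double-positive arrays without overlap. With ICOS it was higher by 0.92 ± 0.20 (adjusted p = 0.0185). This call was lost when any fresh array other than double-negative replicate 1 was left out, with adjusted p of 0.0524 to 0.0762, and was 0.00278 without the array standing apart. The interaction with CD103 was -1.01 ± 0.40 and did not pass (adjusted p = 0.875).

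Activated Pdcd1 read 9.68 and 9.79 in double-negative, 8.92 and 9.65 in CD103 single-positive and 10.17 and 10.13 in double-positive cells, and 10.26 and 9.33 in ICOS single-positive cells, the latter on the array standing apart. No comparison with activation passed for this gene with or without that array. Over the 4 subsets its difference was -0.26 ± 0.14 (95% interval -0.57 to 0.05) on all arrays and -0.14 ± 0.11 without that array. By subset it ran from 0.54 in double-negative to -0.83 in ICOS single-positive cells, a value that was -0.36 without that array, which makes CD103 single-positive cells (-0.60) the lowest. With ICOS activated Pdcd1 differed by 0.46 ± 0.20 on all arrays (adjusted p = 0.221) and by 0.70 ± 0.16 without that array (adjusted p = 0.0323). The likest levels over 15 arrays were those of Bcl2a1c (r = 0.90), Fam20a (r = 0.89) and Podnl1 (r = 0.88).

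Btla, the third CD28-family receptor and a receptor for HVEM, read 9.95 and 10.17 in fresh double-negative, 9.55 and 9.85 in CD103 single-positive, 9.93 and 10.41 in ICOS single-positive and 9.44 and 9.74 in double-positive cells. It did not follow ICOS, with a difference of -0.00 ± 0.20 and a 95% interval of -0.45 to 0.45. All 4 CD103-positive arrays lay below the 4 CD103-negative ones, by 0.47 ± 0.20, which did not pass (adjusted p = 0.628).

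In activated cells Btla read 9.42 and 9.42 in double-negative, 9.27 and 8.96 in CD103 single-positive and 8.32 and 7.95 in double-positive cells. ICOS single-positive cells read 9.12, and 10.12 on the array standing apart. Without that array the 7 activated arrays all lay below the 8 fresh ones. Btla fell by 0.81 ± 0.14 over the 4 subsets (adjusted p = 0.00113), a call kept under every omission. Of the 4 subsets, the fall passed in double-positive cells, by 1.46 ± 0.29 (adjusted p = 0.00705), lost without fresh double-positive replicate 2 (0.0603) or activated double-positive replicate 2 (0.0648). Activated double-positive cells were the lowest of all groups. Against activated double-negative cells they differed by -1.29 ± 0.29, with an adjusted p of 0.12 on all arrays and 0.0128 without the array standing apart. Levels nearest to Btla were those of Metap1d (r = 0.91), Thada (r = 0.90) and Ice2 (r = 0.90).

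Cd160, the other HVEM receptor, had low values, between 5.87 and 7.43 on 15 arrays, where the median of all genes lay between 6.26 and 6.48 on each array. Fresh cells read 7.29 and 6.57 in double-negative, 7.43 and 7.18 in CD103 single-positive, 7.03 and 6.97 in ICOS single-positive and 6.30 and 6.14 in double-positive cells. The double-positive arrays were lowest, without overlap with any other fresh subset. Activated cells read 7.31 and 6.41 in double-negative, 5.99 and 6.02 in CD103 single-positive and 5.97 and 5.87 in double-positive cells, and 6.31 in ICOS single-positive cells with 8.90 on the array standing apart, the highest value of the gene. On all arrays no difference of Cd160 passed in any of the 14 comparisons. Without the array standing apart it was lower over the 4 subsets after the assay, by 0.59 ± 0.15 (adjusted p = 0.0105), and in CD103 single-positive cells by 1.30 ± 0.28 (adjusted p = 0.00677). Its nearest genes over 15 arrays were Spry1 (r = 0.94), Asap1 (r = 0.88) and Pitpnm2 (r = 0.87).

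Cd200, the ligand of Cd200r1, read 8.94 and 8.84 in fresh double-negative, 9.19 and 9.45 in CD103 single-positive, 9.28 and 9.50 in ICOS single-positive and 8.05 and 8.17 in double-positive cells. Both single-positive subsets overlapped at the top, and double-positive cells lay at the bottom. The mean was thus above the double-negative level with either marker alone and below it with both. The interaction was -1.71 ± 0.28 with the same sign in both replicates, and it missed the threshold (adjusted p = 0.0713 on all arrays and 0.0541 without the array standing apart), where 0.0451% of all genes and none of the 9 passed in limma (2 of 9 at an unadjusted p under 0.05).

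Activated Cd200 read 9.34 and 9.21 in double-negative, 9.33 and 9.24 in CD103 single-positive and 8.81 and 8.12 in double-positive cells, with 9.18 and, on the array standing apart, 8.87 in ICOS single-positive cells. Double-positive cells were again lowest. With ICOS the activated level was lower by 0.53 ± 0.14 (adjusted p = 0.0465), a call at the threshold that was 0.121 without the array standing apart. It held in 2 of 16 omissions, those of activated ICOS single-positive or double-positive replicate 1, and the others gave 0.0544 to 0.14. Tnfsf8, Aldh2 and Car12 were nearest in level, with r of 0.92, 0.85 and 0.80. Tnfsf8 encodes the CD30 ligand. All these likenesses are Pearson correlations over the same 15 arrays of 8 groups, taken without the array standing apart among about 2290 genes that varied between arrays, and they describe levels only.

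Set side by side, the subset comparisons differed in how many of the 9 genes they reached. CD103 in fresh cells moved none past limma's threshold on all arrays (4 at an unadjusted p under 0.05), where 0.206% of all genes passed, and Ctla4 without the array standing apart (0.792%). Double-positive against double-negative fresh cells gave 3 of 9 (Havcr2, Tigit and Lag3, against 3.97% of all genes) and 6 of 9 without that array (5.45%), with Ctla4 and Pdcd1 higher and Cd200 lower added. Among activated cells ICOS reached 2 of 9 (Lag3 higher and Cd200 lower, against 6.94%), and without that array 5 of 9 (Lag3, Havcr2, Tigit and Pdcd1 higher and Btla lower, against 6.65%). CD103 in activated cells reached 2 of 9 (Cd96 and Lag3, both lower, against 0.717%) and none without it (0.361%; 5 at an unadjusted p under 0.05). Left with the array standing apart alone, by omitting its partner, the same difference was 1.85 for Havcr2 and -1.92 for Cd160. On all arrays these were 1.05 and -1.27. Activated double-positive against double-negative cells gave none of 9 with all arrays (0.0451%; 4 at an unadjusted p under 0.05) and 1 without it (Btla, against 1.69%).

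**Figure D3:**
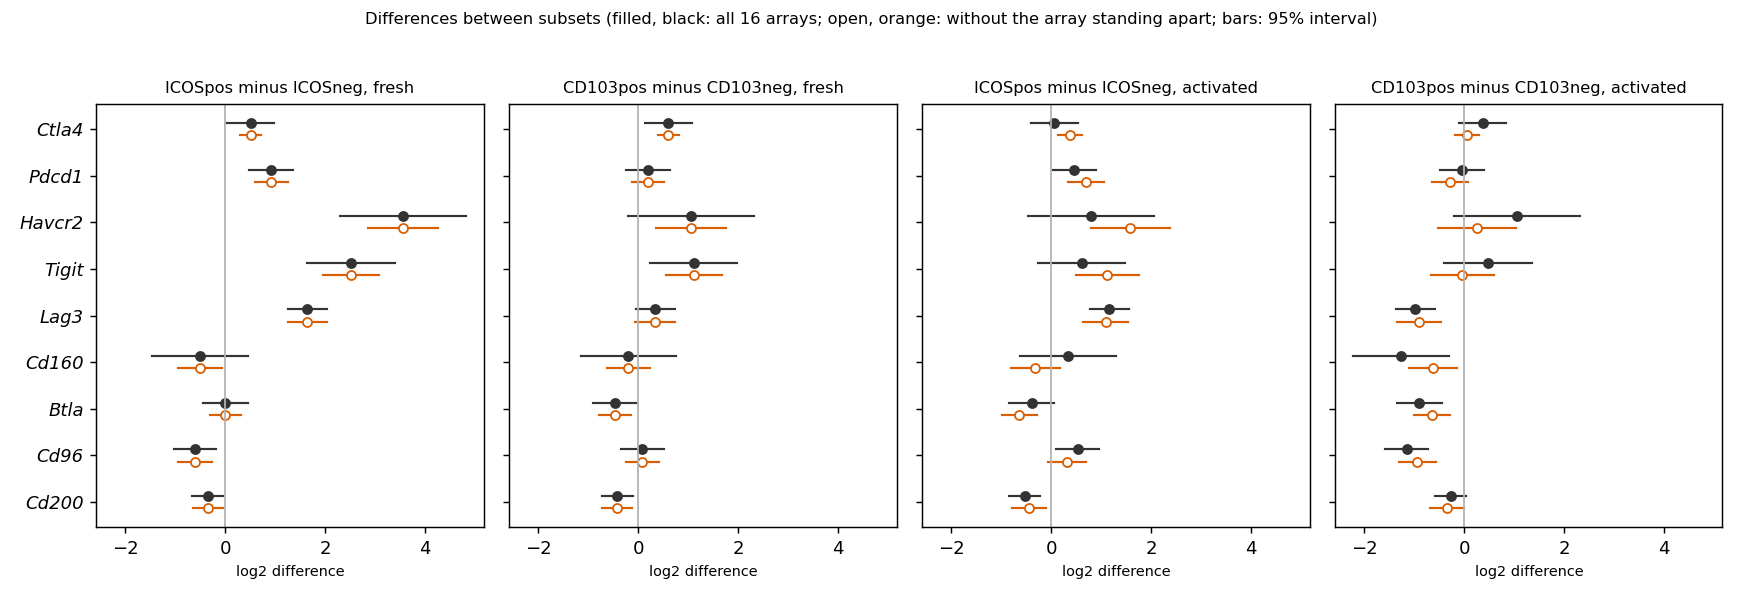
Log2 difference (horizontal axis) of each of the 9 genes with ICOS and with CD103, fresh and activated; filled black points use all 16 arrays, open orange points leave out the array standing apart, and bars are 95% intervals. With ICOS in fresh cells Havcr2, Tigit, Lag3, Pdcd1 and Ctla4 lie right of 0 and Cd96 and Cd200 left, their all-array intervals excluding 0. Of these Havcr2, Tigit, Lag3 and Pdcd1 passed after adjustment on all arrays. With CD103 in activated cells Cd160, Cd96, Lag3 and Btla lie left of 0, their all-array intervals excluding 0, and Cd96 and Lag3 passed likewise.

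Against these subset patterns, activation itself moved 5 of the 9 genes over the 4 subsets, where 31.2% of all genes passed (14.4% higher and 16.8% lower). Lag3 rose by 1.31 ± 0.12 (adjusted p = 1.36e-05), Havcr2 by 1.40 ± 0.40 (adjusted p = 0.0201) and Tigit by 0.95 ± 0.28 (adjusted p = 0.0229). Cd96 fell by 1.43 ± 0.14 (adjusted p = 1.4e-05), to go with the fall of Btla given above. The Tigit call was lost without fresh double-negative replicate 2 (0.0505), fresh CD103 single-positive replicate 2 (0.0535) or activated CD103 single-positive replicate 1 (0.0534). Without the array standing apart 7 of 9 passed (30.7% of all genes), with Ctla4 higher by 0.32 ± 0.07 (adjusted p = 0.00597) and Cd160 lower added. In all 4 subsets fresh and activated cells also differ in 3 days of culture and in a second sort on CD25, and these cannot be told apart from activation.

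Subset by subset, activation reached 4 of 9 in double-negative cells (Havcr2, Tigit and Lag3 higher and Cd96 lower, against 16.2% of all genes). It reached 2 of 9 in CD103 single-positive cells (Havcr2 higher and Cd96 lower, 20.2%), 1 in ICOS single-positive cells (Lag3, 2.09%) and 2 in double-positive cells (Btla and Cd96 lower, 14.1%). Without the array standing apart these counts were 5 in double-negative (17.2%, Ctla4 added), 4 in CD103 single-positive (21.1%, Tigit and Cd160 added), 2 in double-positive (14.8%) and none in ICOS single-positive cells (1.62%; 5 at an unadjusted p under 0.05). Double-positive cells had no coinhibitory gene that rose past the threshold. Their Havcr2, Tigit and Ctla4 differed by 0.13, -0.01 and -0.09 with SE of 0.81, 0.56 and 0.30. Their Lag3 was higher by 0.55 ± 0.25, with a 95% interval of 0.003 to 1.10 and a limma adjusted p of 0.184. Whether activation acted differently with ICOS was tested for each gene: Cd96 passed on all arrays, where 6.72% of all genes did, and Havcr2 and Cd96 without the array standing apart (5.92%). With CD103 the same test passed for none of the 9 on all arrays (0.296% of all genes; 2 of 9 at an unadjusted p under 0.05) or without that one (0.321%; 4 of 9).

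**Figure D4:**
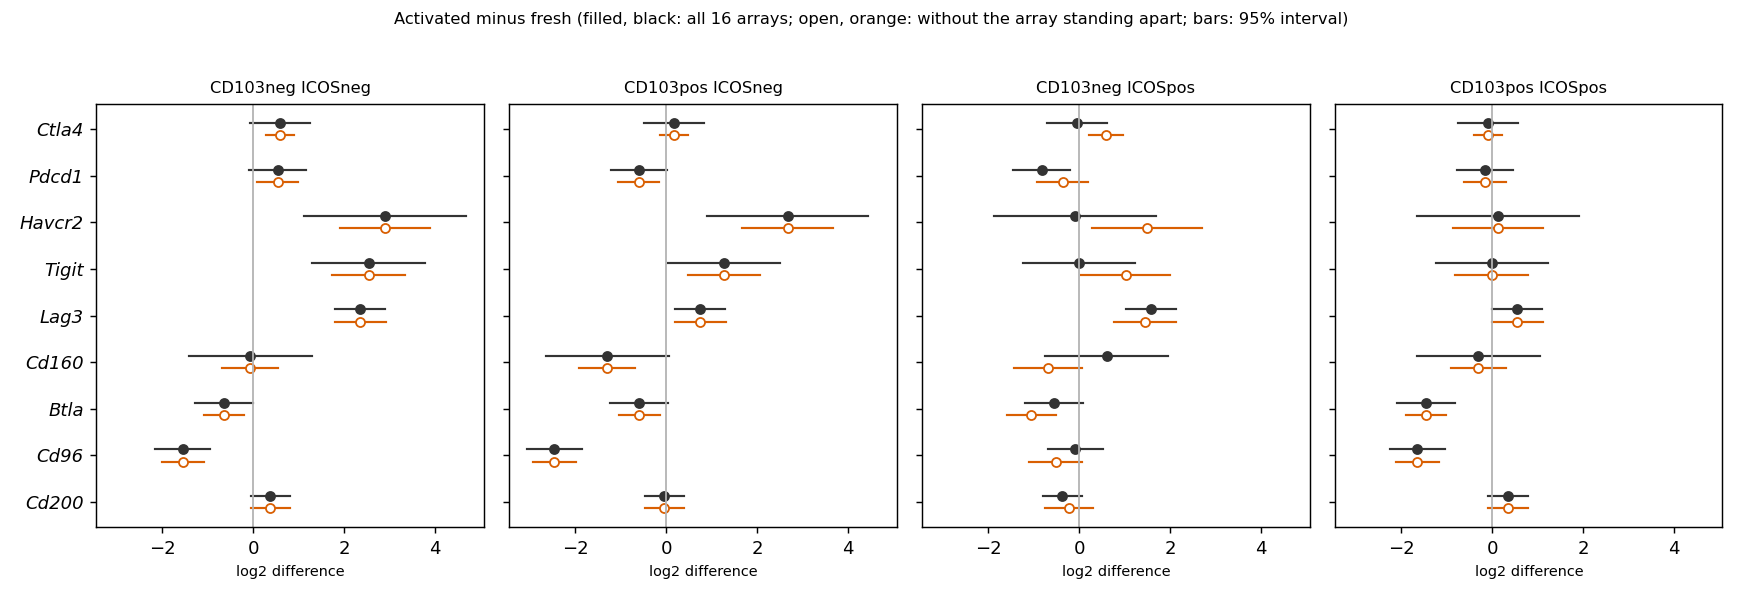
Log2 difference of activated minus fresh cells (horizontal axis) for the 9 genes, 1 panel per subset; filled black points use all 16 arrays, open orange points leave out the array standing apart, and bars are 95% intervals. Havcr2, Tigit and Lag3 lie furthest right in double-negative cells, and Btla and Cd96 lie left of 0 in every panel, with all-array intervals that cross 0 for Cd96 in ICOS single-positive cells and for Btla in both single-positive subsets.

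Lists of other genes of the same pathways put these results in context. Of 22 measured other inhibitory receptors, 3 were higher and 2 lower with ICOS in fresh cells, where 4.1% of all genes were higher and 2.43% lower. Their median difference was -0.04 against -0.05 over all genes. Klrg1, a receptor of late effector cells, was higher by 4.57 (adjusted p = 0.00308), Lilrb4a by 2.31 (adjusted p = 0.00611) and Cd22 by 1.14 (adjusted p = 0.0195). Pecam1 differed by -0.91 and Cd101 by -0.54. On all arrays Cd101 was the gene of this list that passed with CD103 in fresh cells, higher by 1.24 (adjusted p = 0.00284), and without the array standing apart Klrg1 (1.81) and Pecam1 (-0.73) passed too. On activation, where 14.4% of all genes were higher and 16.8% lower, 1 was higher (Lilrb4a, 3.16) and 7 were lower, among them Cd101 (-1.92), Cd22 (-1.30), Cd72 (-1.23) and Vsir (-1.05), Vsir encoding the coinhibitory receptor VISTA. B cell genes, given below, also differed in these comparisons, and which cells made the Cd22 and Cd72 RNA was not tested.

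The ligands were read in the same RNA of sorted cells, and which cells made their RNA was not tested. Of 17 measured, Lgals3, the gene of galectin-3, was higher with ICOS in fresh cells by 2.10 and no other passed on all arrays, where 6.53% of all genes passed. With the array standing apart left out 3 passed, against 7.81% of all genes, with Cd80 (1.01), a ligand of Ctla4, and Cd200r1 (1.06), the receptor of Cd200, added. The list's median of -0.04 was near that of all genes, -0.05. On activation 5 were higher and 4 lower (6 and 4 without that array), where 14.4% and 16.8% of all genes were on all arrays. The median was 0.14 against 0.00 over all genes. H2-Ab1 (1.66) and H2-Aa (-1.25), both chains of the MHC class II that Lag3 binds, went opposite ways. Cd86 differed by -1.18 (-0.82 without that array) and Tnfrsf14, the gene of HVEM, by -0.39. Of 12 activating partners, Cd226, the activating rival of Tigit and Cd96, differed by -2.27 on activation (adjusted p = 1.41e-05). With it 4 were lower and 3 higher (Tnfrsf9 1.54, Tnfrsf18 0.59 and Tnfrsf4 0.51, all receptors of the TNF family), where 16.8% and 14.4% of all genes were. Without that array 4 were lower and 5 higher. With ICOS in fresh cells 3 of these 12 were higher, against 4.1% of all genes, namely Icos, which the sort selected, Tnfsf14 (0.94) and Tnfrsf4 (0.56). Without that array 4 were higher.

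Inside the cell, 11 of 22 genes listed under inhibitory signalling fell after the assay and 1 rose, where 16.8% of all genes fell and 14.4% rose. The median of the list was -0.20 against 0.00 over all genes. Sh2d1a, the adaptor SAP, fell by 1.95, with Pag1 at -1.24, Fyn at -1.05 and Ubash3a at -0.87. Signalling was not measured, so lower RNA of these genes does not show less inhibition. With ICOS in fresh cells Sla alone of this list was higher, by 0.49, where 4.1% of all genes were higher. Of 16 genes for trafficking and shedding, Lrba, which spares Ctla4 from lysosomes, was higher with ICOS in fresh cells by 1.05 (adjusted p = 0.026) and lower on activation by 0.56 (by 0.38 without the array standing apart). On activation 4 of that list were higher (Ap2m1, Arf1, Ap2a1 and Cmtm4) and 3 lower, where 14.4% and 16.8% of all genes were. Among the lower was Adam10 (-0.40), a protease that sheds Lag3.

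Of 24 transcription factors and receptors known to act on coinhibitory genes, 8 were higher and 3 lower with ICOS in fresh cells. Of all genes 4.1% were higher and 2.43% lower there. The median of the list was 0.24 against -0.05 over all genes. Prdm1 was higher by 3.44 (adjusted p = 0.014), Maf by 2.08 (adjusted p = 0.0151), Id2 by 2.01 (adjusted p = 0.000628) and Ahr by 1.999 (adjusted p = 0.000707). The lower ones were Bach2 (-1.59), Id3 (-1.30) and Lef1 (-0.80), genes of resting and stem-like T cells. On activation 7 were higher and 8 lower (8 and 9 without the array standing apart), where 14.4% and 16.8% of all genes were, with a median of -0.32 against 0.00 over all genes. They were led by Nfil3 (2.29), Tbx21 (1.85) and Batf (1.29) above and Tox (-1.63), Id3 (-1.38) and Ahr (-1.27) below.

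Markers of other cells that a sort could carry along were read in the same arrays. With activation 5 of 8 B cell genes fell and 1 (Ebf1) rose, 8 of 17 myeloid and dendritic genes fell and 2 (Cebpb and Cd68) rose, and 4 of 13 CD8 T and NK cell genes fell and 1 (Gzma) rose, where 16.8% of all genes fell and 14.4% rose. The mean level of the B cell genes was 5.63 to 6.44 on fresh and 5.77 to 6.10 on activated arrays, and that of the myeloid genes 5.81 to 6.63 and 5.73 to 6.01, the array standing apart not counted. Of 9 genes of activated conventional CD4 cells, 5 rose and 2 fell with activation, at mean levels of 6.35 to 7.79 before and 7.09 to 8.83 after. With ICOS in fresh cells 2 of these 9 (Il21 and Cd40lg) were higher, where 4.1% of all genes were higher and 2.43% lower. In that comparison 1 of 8 B cell genes (Blk, 1.18) and 2 of 17 myeloid genes (Cebpa, 0.95, and Lyz1, 0.78) were higher. Of the 13 CD8 T and NK cell genes Gzmk (0.67) and Klrb1c (0.59) were higher and Cd8a (-0.75) was lower. Cd8a read 7.78 and 8.05 on fresh CD103 single-positive arrays and at most 6.56 on the other fresh arrays. The part of these markers in the results was not tested.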

How the data were processed

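RNA of 16 Treg samples in 8 groups of 2 was measured on 1-colour Affymetrix arrays. The deposited values are log2 intensities, made with RMA and the affy package per the submitters' processing notes; their versions were not given in the sources used here. Background correction and normalization were kept as they stood. Of 35556 probe sets, 21789 were annotated to 1 symbol, 1621 to several and 12146 to none in GEO's platform annotation, and each gene was read from its brightest probe set over the 16 arrays. Groups came from the labels.

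Differences between group means were tested in 14 comparisons with limma 3.58.1 in R 4.3.3 over 19938 genes, with 8 residual degrees of freedom, Benjamini-Hochberg adjustment and a threshold of 0.05. The code was tested on simulated data. The number of arrays limits the precision. The 9 genes and 12 gene lists (171 of 189 listed genes measured) were chosen with earlier results of these data known. By rule, every one of the 9 genes was described, up to 4 genes of each list that passed were named, those with the largest difference, and the 3 genes with the highest correlation over 15 arrays were named for each gene. Alternatives were each array left out, a replicate block, array weights, another normalization, filter and probe-set rule, and separate fits. Pairing was checked through deviations from group means: 27 of 28 pairs of groups correlated over 0.1 and the lowest was -0.016, so by the rule that every pair be over 0.1 the numbers were not taken to pair samples, although they may mark the 2 experiments.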

Additional observations from a re-analysis of the deposited data

Results flagged for a closer look

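Cd96 was set aside for a closer look because its difference with ICOS was not the same in activated and fresh cells. The change of the difference was 1.14 on the log2 scale (SE 0.27, limma adjusted p = 0.0320). It went from -0.61 in fresh to 0.53 in activated cells and was above 0 in both replicates. Without the second array of activated ICOS single-positive cells the activated difference was 0.32 and the change was 0.92 (adjusted p = 0.0394), and over all 22 alternatives the adjusted p ran from 0.00467 to 0.0774, with 11 of them past the threshold.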

How the results depend on the processing

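Each difference was recomputed with other settings and with each array left out. No difference of the 9 genes that passed the threshold changed sign. Of 2835 recomputed differences of these genes 46 changed sign, all of them under the threshold before and after, and 13 of these left out an activated ICOS single-positive array. Havcr2, Tigit and Lag3 with ICOS in fresh cells passed in all 16 omissions. The labels do not say that a replicate number pairs samples, although the numbers may mark the 2 experiments and 27 of 28 pairs of groups correlated over 0.1. With the replicate block these differences passed that had missed the threshold: Cd200 in the CD103 by ICOS interaction (adjusted p = 0.0327) and, in double-positive against double-negative fresh cells, Pdcd1 (0.0408) and Cd200 (0.0373); Btla with CD103 in activated cells (0.0373) and in double-positive against double-negative activated cells (0.0497); Lag3 with activation in CD103 single-positive cells (0.0426); and the change with activation of the ICOS difference of Havcr2 (0.0461) and Tigit (0.0189) and of the CD103 difference of Lag3 (0.0277). Array weights were equal for both arrays of a group and could not weigh that array down. Cd160 lay near the array medians and fresh ICOS-negative Havcr2 under them, where intensities include background, and 2 arrays a group limit the precision.

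The replicate block, which treats equal numbers as pairs, gave called genes numbering 2275 for ICOS in fresh cells, 143 for CD103 in fresh cells, 71 for the CD103 by ICOS interaction, 1412 for double-positive against double-negative fresh cells, 2734 for ICOS in activated cells, 519 for CD103 in activated cells, 240 for double-positive against double-negative activated cells, 1064 for activation in ICOS single-positive cells, 4412 for activation in double-positive cells, 2638 for the ICOS change with activation and 370 for the CD103 change with activation, and calls among the 9 numbering 1 for the CD103 by ICOS interaction, 5 for double-positive against double-negative fresh cells, 1 for double-positive against double-negative activated cells, 3 for the ICOS change with activation and 1 for the CD103 change with activation. Quantile normalization repeated gave called genes numbering 17 for the CD103 by ICOS interaction, 14 for double-positive against double-negative activated cells and 133 for the CD103 change with activation, and calls among the 9 numbering 1 for the CD103 by ICOS interaction and 1 for CD103 in activated cells. Leaving out dim genes gave called genes numbering 9 for CD103 in fresh cells, 1 for the CD103 by ICOS interaction and 5 for double-positive against double-negative activated cells, and calls among the 9 numbering 6 for double-positive against double-negative fresh cells, 3 for the ICOS change with activation and 1 for the CD103 change with activation. The mean of a gene's probe sets gave called genes numbering 17 for the CD103 by ICOS interaction. Array weights gave called genes numbering 21 for the CD103 by ICOS interaction, and calls among the 9 numbering 1 for the CD103 by ICOS interaction, 6 for double-positive against double-negative fresh cells, 1 for ICOS in activated cells and 1 for activation in CD103 single-positive cells. An intensity trend in the prior gave called genes numbering 28 for the CD103 by ICOS interaction and 29 for double-positive against double-negative activated cells, and calls among the 9 numbering 5 for double-positive against double-negative fresh cells, 1 for ICOS in activated cells and 3 for the ICOS change with activation. A fit to the fresh arrays alone gave called genes numbering 268 for CD103 in fresh cells, 62 for the CD103 by ICOS interaction and 1264 for double-positive against double-negative fresh cells, and calls among the 9 numbering 2 for CD103 in fresh cells, 1 for the CD103 by ICOS interaction and 7 for double-positive against double-negative fresh cells. A fit to the activated arrays alone gave called genes numbering 443 for ICOS in activated cells, 0 for CD103 in activated cells and 0 for double-positive against double-negative activated cells, and calls among the 9 numbering 1 for ICOS in activated cells and 0 for CD103 in activated cells; at an unadjusted p under 0.05 in limma, 1980 genes with 3 of the 9 passed for CD103 and 2658 genes for double-positive against double-negative. With 1 array left out at a time, the calls among the 9 genes ranged from 1 to 4 for activation in CD103 single-positive cells, from 2 to 5 for activation in double-negative cells, from 1 to 2 for activation in double-positive cells, from 0 to 3 for activation in ICOS single-positive cells, from 4 to 7 for activation over 4 subsets, from 0 to 1 for the CD103 by ICOS interaction, from 0 to 3 for the CD103 change with activation, from 0 to 6 for CD103 in activated cells, from 0 to 1 for CD103 in fresh cells, from 0 to 1 for double-positive against double-negative activated cells, from 2 to 6 for double-positive against double-negative fresh cells, from 0 to 5 for the ICOS change with activation, from 1 to 5 for ICOS in activated cells and from 3 to 6 for ICOS in fresh cells. Called genes over the whole array then ranged from 2832 to 4197 for activation in CD103 single-positive cells, from 2062 to 3437 for activation in double-negative cells, from 1362 to 2948 for activation in double-positive cells, from 91 to 636 for activation in ICOS single-positive cells, from 5651 to 6112 for activation over 4 subsets, from 0 to 30 for the CD103 by ICOS interaction and from 8 to 366 for the CD103 change with activation. They ranged from 23 to 942 for CD103 in activated cells, from 4 to 158 for CD103 in fresh cells, from 4 to 337 for double-positive against double-negative activated cells, from 295 to 1087 for double-positive against double-negative fresh cells, from 815 to 1663 for the ICOS change with activation, from 509 to 1449 for ICOS in activated cells and from 771 to 1558 for ICOS in fresh cells. The upper ends for CD103 in activated cells, 6 of the 9 and 942 genes, came without activated ICOS single-positive replicate 1, which leaves the array standing apart as the only one of its group.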
